A study of Mus musculus with 24 samples.

Results

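Genes that carry out mitosis and cytokinesis were followed in the hearts of mice with a myocardial infarction. The group holds 42 genes, listed by name for their roles in cell division, among 21878 genes in the count table. They were chosen with earlier results of these data known, so their shares set against all genes describe the group and do not test it. All 42 were present, and all 42 passed the filter on low counts, which left 13501 genes for testing. Each was listed under 1 role, and the counts by role below rest on that listing. It put 7 under mitotic entry, 8 under the kinetochore and the spindle checkpoint, 3 under the chromosomal passenger complex and 10 under the spindle. It put 3 under chromosome structure, 4 under mitotic exit and 6 under cytokinesis, and 1, Mxd3, is a transcription factor.

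The mice were ovariectomised, had received adeno-associated virus 9 (AAV9, a carrier of genes that enters heart muscle), and were studied 3 weeks after the infarction. There were 5 libraries from mice given AAV9 that overexpressed the microRNA miR-21 and trained by swimming before the infarction (the miR-21 swimming group), 6 with the empty virus and swimming (the empty-vector swimming group), 6 with the miR-21 virus and no swimming (the miR-21 controls) and 6 with the empty virus and no swimming (the empty-vector controls). Every group shared the ovariectomy, a virus and the infarction, so none of the comparisons bears on these. The labels give neither the promoter that drives miR-21 in the virus nor the part of the heart that was sampled. RNA came from whole tissue labelled heart, and the 8 cardiomyocyte marker genes together had 54471 to 113563 CPM (counts scaled to library size by TMM, as throughout) in the 23 libraries. In bulk tissue, a change in the number of dividing cells and a change in RNA per dividing cell cannot be told apart. Whether the libraries of a group are separate mice is not stated, and p-values here reflect the spread between libraries, which may be technical.

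A cell enters mitosis when Cdk1, bound to cyclin A or cyclin B, becomes active. Chromosomes condense, kinetochores attach them to the spindle, a checkpoint holds the cell until all are attached, and the anaphase-promoting complex then destroys cyclin B and lets the chromosomes part. Cytokinesis, which pinches the cell in the middle, is carried out by a ring assembled around the spindle midzone. In the adult heart most cardiomyocytes have left the cell cycle, while fibroblasts, endothelial cells and immune cells divide after an infarction, and some cardiomyocytes copy their DNA without completing cytokinesis. The genes of this machinery are transcribed late in the cell cycle, and many of their promoters are known to hold a CHR element (cell cycle genes homology region) close to the start of transcription and CCAAT boxes upstream, bound by the DREAM and MuvB complexes and by NF-Y.

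Promoter sequences were taken from RefSeq on build GRCm38.p6, as 250 bases before to 50 bases after each start, and 35 of the 42 genes had one, Casc5 under its newer symbol Knl1. The CHR letters searched were TTTGAA, or TTCAAA for the other strand, and the CCAAT box was searched as CCAAT or ATTGG. A CHR match was present in 26 of the 35 genes (74.3%), against 5466 of all 27025 genes with a promoter (20.2%) and 1533 of the 10692 tested genes with a promoter (14.3%). Within 50 bases of the start, 25 of 35 genes had one (71.4%), against 5.72% of all genes and 3.79% of tested genes. CCAAT was found in 27 of 35 (77.1%), against 41.1% and 42.7%. A single promoter held both in 23 of 35 (65.7%), against 7.97% and 5.82%. These matches are a description of letters, and binding was not measured.

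The windows below run from 120 bases before to 30 bases after the start and are shown because they carry the arrangement shared by most of the promoters, for genes that differ in role. CHR and CCAAT letters are in capitals. Cdk1 (chr10:69352883-69353032, minus strand) and Ccnb2 (chr9:70421525-70421674, minus strand) act at mitotic entry, Cdc20 (chr4:118437314-118437463, minus strand) at exit, Aspm (chr1:139454653-139454802, plus strand) and Kif18b (chr11:102925095-102925244, minus strand) on the spindle, and Prc1 (chr7:80294331-80294480, plus strand) and Kif23 (chr9:61946770-61946919, minus strand) at cytokinesis. Nusap1 (chr2:119618178-119618327, plus strand), a microtubule-bundling protein, is shown as a gene whose window holds neither motif.
Cdk1: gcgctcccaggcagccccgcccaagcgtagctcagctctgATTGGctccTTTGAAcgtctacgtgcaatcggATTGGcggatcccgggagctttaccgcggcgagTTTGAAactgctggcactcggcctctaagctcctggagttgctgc
Ccnb2: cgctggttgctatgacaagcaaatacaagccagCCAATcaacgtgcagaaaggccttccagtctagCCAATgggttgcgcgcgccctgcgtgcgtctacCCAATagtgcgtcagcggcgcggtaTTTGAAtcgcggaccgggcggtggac
Cdc20: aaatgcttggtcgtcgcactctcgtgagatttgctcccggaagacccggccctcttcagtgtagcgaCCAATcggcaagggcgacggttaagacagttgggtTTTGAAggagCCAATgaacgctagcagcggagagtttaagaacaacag
Aspm: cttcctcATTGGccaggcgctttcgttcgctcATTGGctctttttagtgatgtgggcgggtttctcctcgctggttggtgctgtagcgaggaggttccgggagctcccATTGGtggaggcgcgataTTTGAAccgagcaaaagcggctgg
Kif18b: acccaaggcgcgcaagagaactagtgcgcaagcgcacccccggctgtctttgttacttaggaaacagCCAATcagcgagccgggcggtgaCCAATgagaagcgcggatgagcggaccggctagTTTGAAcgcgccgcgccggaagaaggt
Prc1: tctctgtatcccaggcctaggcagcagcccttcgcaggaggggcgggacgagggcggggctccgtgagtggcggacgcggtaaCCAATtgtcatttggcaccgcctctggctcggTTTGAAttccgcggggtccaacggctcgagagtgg
Kif23: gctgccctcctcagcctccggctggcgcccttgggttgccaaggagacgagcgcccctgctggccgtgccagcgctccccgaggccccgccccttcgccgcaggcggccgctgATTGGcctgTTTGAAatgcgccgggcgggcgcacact
Nusap1: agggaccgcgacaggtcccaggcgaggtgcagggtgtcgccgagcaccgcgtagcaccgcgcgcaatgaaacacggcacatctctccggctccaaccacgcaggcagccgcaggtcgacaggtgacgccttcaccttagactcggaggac
Counting the first transcribed base as 1, with no position 0, the CHR of Kif23 begins at 3, that of Kif18b at 4, that of Ccnb2 at 5 and that of Aspm at 7. Ccnb2 has evenly spaced CCAAT boxes at -87, -54 and -21. In Cdk1 a CHR lies at -71, close after an ATTGG that begins at -80, and a further one at -15.

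**Figure D1:**
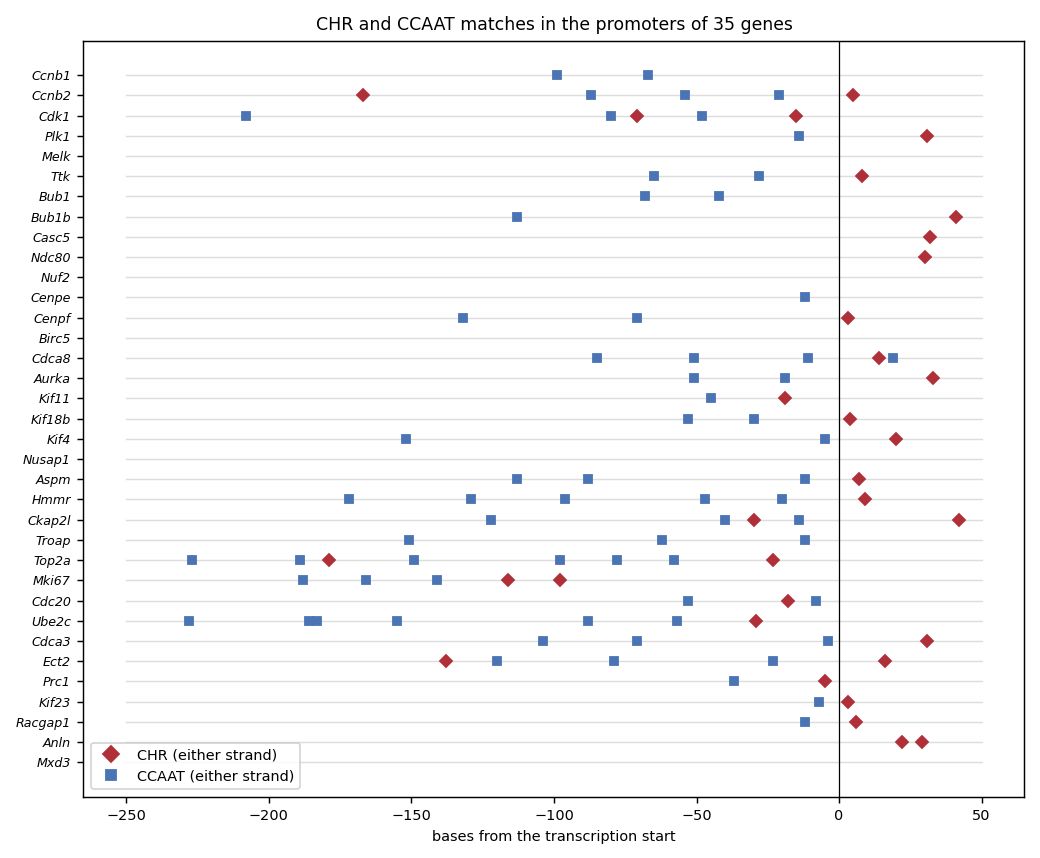
Positions of CHR and CCAAT matches, in bases from the transcription start, in 1 promoter of each of the 35 genes that had one (for Ect2 and Prc1, which have more than 1, that with the lower coordinate). Diamonds for CHR cluster around the start in 25 genes, and squares for CCAAT lie mostly upstream of it.

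The 23 libraries held 12744241 to 14657630 counts, and a count of 0 allows a level of up to 0.176 to 0.253 CPM (3 counts, counting error only). Replicate 2 of the miR-21 swimming group stood apart. It had a summed level of 220.8 CPM over the 42 genes, against 43.9 to 91.0 CPM in the other 4 libraries of its group, and was the highest of its group for 39 of the 42. Adipocyte markers summed to 334 CPM in it, neutrophil markers to 963 CPM and mesothelial markers to 188 CPM, and its cardiomyocyte markers, at 54471 CPM, were the lowest of all 23. Empty-vector control replicates 2 and 5 were also rich in adipocyte markers, at 362 and 295 CPM. The numbers in the sample titles form a 13xx and a 20xx series: both groups without swimming are all 13xx, the empty-vector swimming group is all 20xx, and the miR-21 swimming group has replicates 1 and 2 in 13xx and 3 to 5 in 20xx. The labels do not say what the series stand for. Swimming with the empty vector therefore cannot be told apart from the title series, except through the miR-21 swimming group.

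Across the genes as a group, the empty-vector swimming hearts held the most mitotic transcripts. The summed level of the 42 genes was 91.0, 220.8, 43.9, 56.6 and 49.0 CPM in the miR-21 swimming libraries, 169.9 to 437.9 CPM (median 247.8) in the empty-vector swimming libraries, 48.4 to 78.0 CPM (median 64.8) in the miR-21 controls and 77.4 to 125.7 CPM (median 97.2) in the empty-vector controls. No empty-vector swimming library overlapped either group without swimming, and of the miR-21 swimming libraries only replicate 2 reached into the empty-vector swimming range. Mki67 and Top2a together made up 7.23 to 25.2% of the sum in the miR-21 swimming libraries, 13.8 to 19.9% in the empty-vector swimming libraries, 7.29 to 15.3% in the miR-21 controls and 11.1 to 18.2% in the empty-vector controls, so most of the sum came from the other 40 genes. All were low: by the authors' FPKM, which divide by gene length, the mean over all libraries ran from 0.114 to 2.99 FPKM with a median of 0.826, against 1.24 for all genes of the table. Ube2c had the highest mean FPKM of the 42 in each of the 4 groups, at 2.29 ± 2.09 FPKM (SD, n = 5) in the miR-21 swimming group, 5.30 ± 2.33 (n = 6) in the empty-vector swimming group, 1.49 ± 0.463 (n = 6) in the miR-21 controls and 2.77 ± 1.16 (n = 6) in the empty-vector controls.

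**Figure D2:**
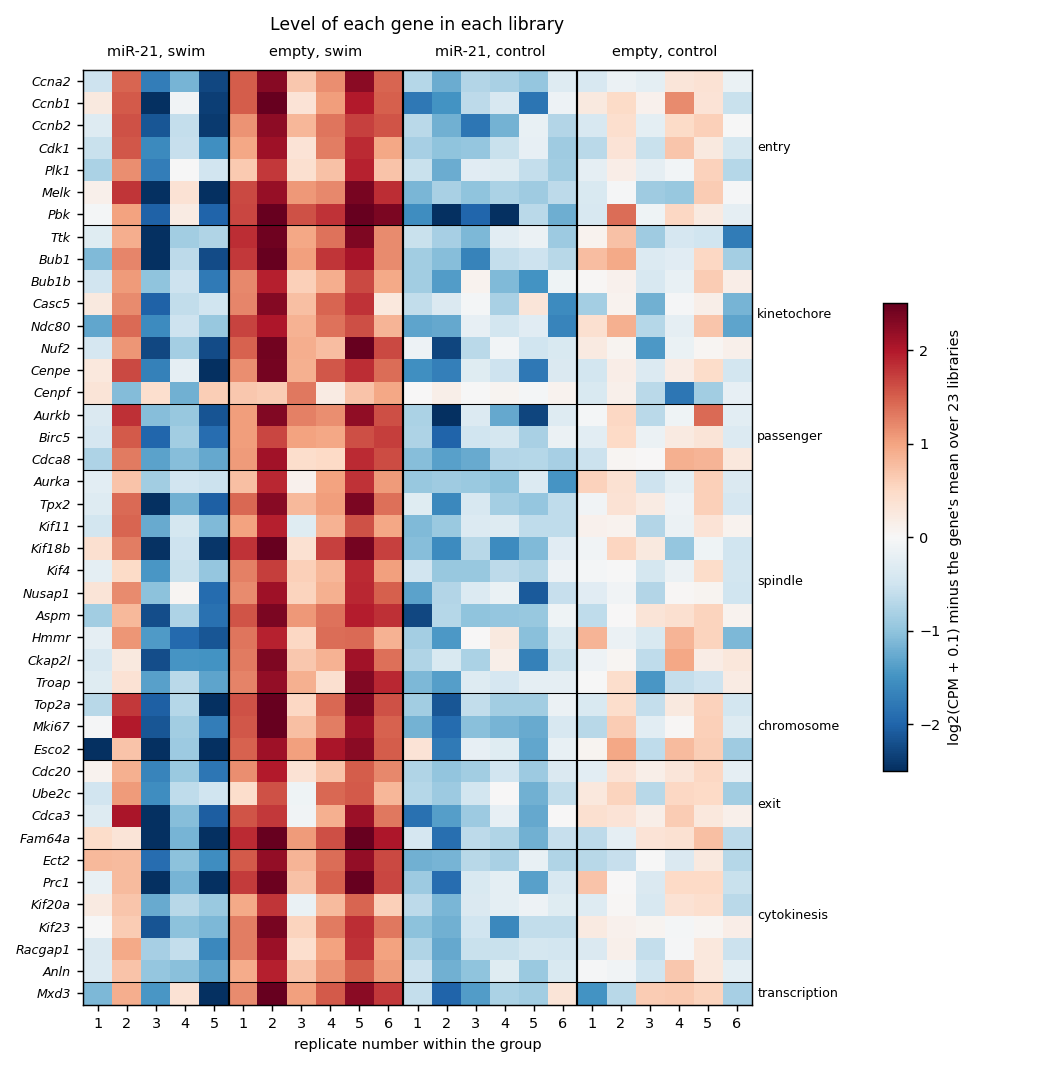
Level of each of the 42 genes (rows, by role) in each of the 23 libraries (columns, by group and replicate), as log2(CPM + 0.1) minus the gene's mean over all libraries. The 6 empty-vector swimming columns and replicate 2 of the miR-21 swimming group are high for nearly all rows, and Cenpf departs from the others.

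Swimming was compared with no swimming under the empty vector to ask what training before the infarction left in the heart. Of the 42 genes, 29 were called higher (edgeR's quasi-likelihood test, Benjamini-Hochberg adjusted p under 0.05) and 0 lower, where 4.18% of all genes tested were called higher and 3.28% lower. All 42 log2 fold changes were positive, from 0.95 for Ube2c to 2.28 for Ttk, with a median of 1.52 against -0.0048 for all genes tested. At an unadjusted p under 0.05 there were 41 of 42, against 23.3% of all genes. For 24 of the 42, all 6 swimming libraries lay above all 6 controls, against 2.90% of all genes. The call rate differed by role: 6 of 6 cytokinesis genes, 7 of 8 of the kinetochore and checkpoint, 8 of 10 of the spindle, 4 of 7 of mitotic entry, 2 of 3 of chromosome structure, 1 of 4 of mitotic exit and 0 of 3 of the passenger complex were called, whether these shares differ was not tested, and Mxd3 was called.

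The count of 29 was 41 (all but Ccnb1) without miR-21 swimming replicate 2, which is in neither group and enters through the shared spread. In that fit the median was 1.52. It called 1922 of all 13530 genes in either direction, against 1007 of 13501 in the main fit. The count was 18 without empty-vector control replicate 3, 19 without replicate 4 and 18 without replicate 6. In these fits 865, 654 and 863 of all genes were called. The count was 16 on leaving out empty-vector swimming replicate 2 and 14 on leaving out replicate 5, where 645 and 607 genes were called. With a term for the title series it was 34, at a median log2 fold change of 3.66, where 164 of all 13501 genes were called. That term rests on the contrast of miR-21 swimming replicates 3 to 5 with replicates 1 and 2, of which replicate 2 is the library that stood apart. The calls of 12 genes held under every alternative run for them: Anln, Aspm, Casc5, Ect2, Fam64a, Kif18b, Kif23, Kif4, Nusap1, Racgap1, Troap and Ttk.

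Swimming hearts with the miR-21 vector were set against swimming hearts with the empty one to ask what miR-21 changed after training. Of the 42 genes, 24 were called lower and 0 higher, where 2.71% of all genes tested were called lower and 1.87% higher. All 42 log2 fold changes were negative, from -2.98 for Esco2 to -0.79 for Cenpf, with a median of -1.63 against 0.018 for all genes. At an unadjusted p under 0.05 there were 41 of 42, against 19.8% of all genes. For 10 of the 42 the 5 miR-21 swimming libraries lay below all 6 empty-vector swimming libraries, against 1.90% of all genes. By role, the calls covered 6 of 6 cytokinesis genes, 7 of 10 of the spindle, 4 of 8 of the kinetochore and checkpoint, 2 of 7 of mitotic entry, 1 of 3 of the passenger complex, 1 of 3 of chromosome structure, 2 of 4 of mitotic exit, and Mxd3.

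Without miR-21 swimming replicate 2 the count was 41 (all but Cenpf), with a median of -2.68. That fit called 1871 of all 13530 genes in either direction, against 618 of 13501 in the main fit. Within the 20xx title series, miR-21 swimming replicates 3 to 5 face all 6 empty-vector swimming libraries. There the count was 41 with a median of -3.02, and more of all genes were called than in the main fit too. Leaving out empty-vector swimming replicate 2 or 5 gave 14 and 15, where 330 and 339 of all genes were called. Leaving out miR-21 swimming replicate 3, 4 or 5 gave 16, 14 and 15, where 417, 412 and 362 were called. A fit of the 2 swimming groups alone gave 4, where 165 of all 13067 genes were called. Of the 24 calls, 4 held under every alternative run for them, those of Aspm, Ckap2l, Kif4 and Troap. This comparison shares the empty-vector swimming libraries with the one on swimming, so their opposite signs are not independent of each other.

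**Figure D3:**
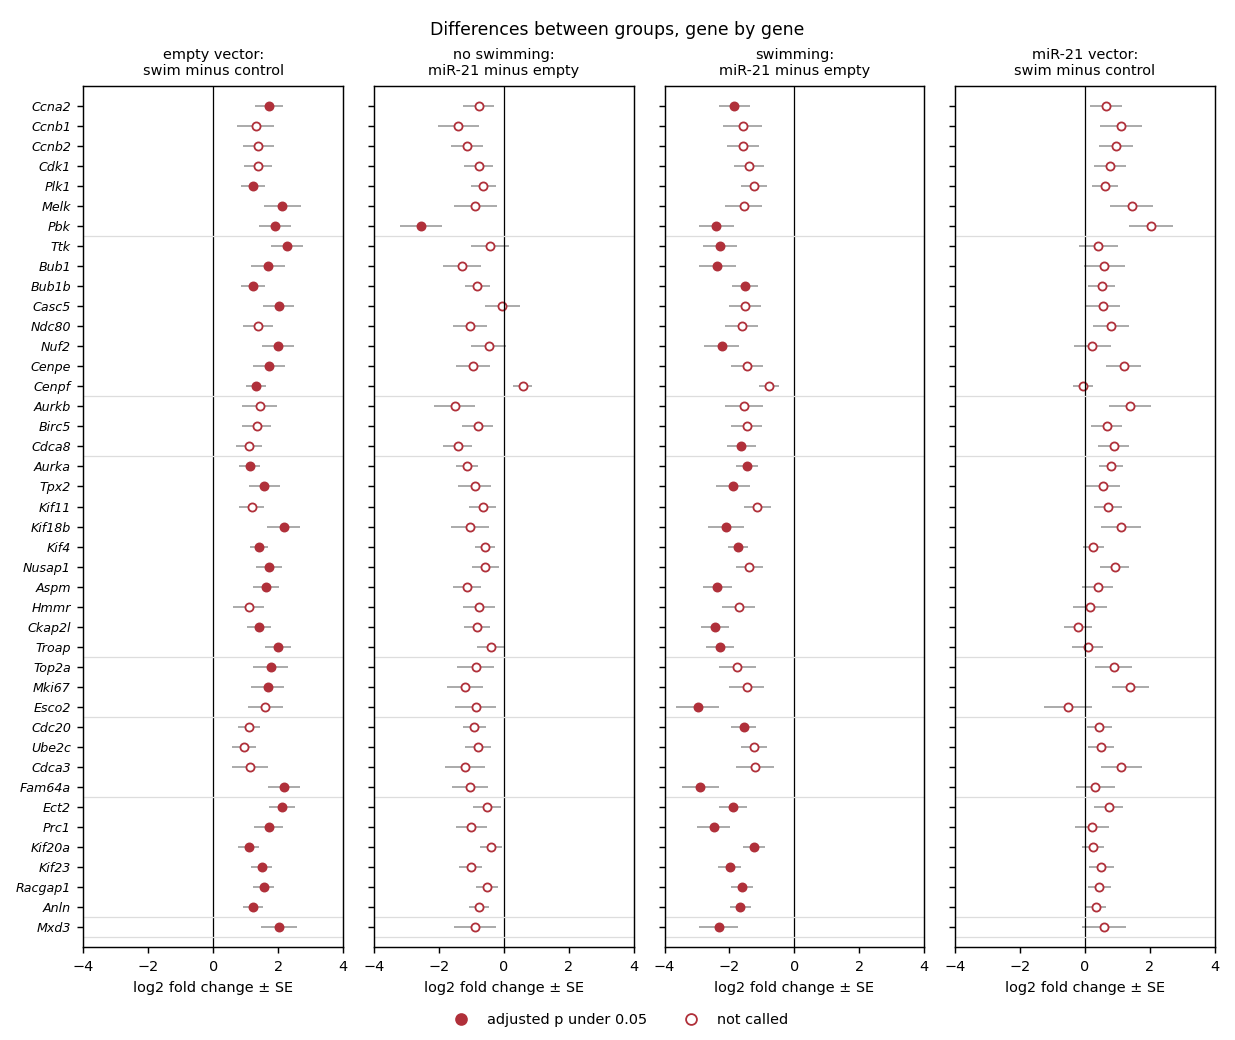
Log2 fold change ± SE of each of the 42 genes in the 4 comparisons (swimming minus control, or miR-21 minus empty vector), with filled points for an edgeR adjusted p under 0.05. Filled points number 29 for swimming with the empty vector, 1 for miR-21 without swimming, 24 for miR-21 with swimming and 0 for swimming with miR-21.

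Among the 7 genes of mitotic entry, Ccna2, Pbk, Melk and Plk1 were called higher with swimming under the empty vector. Pbk and Ccna2 were called lower with miR-21 in swimming hearts. Cdk1, the kinase that drives cells into mitosis, had 1.73, 7.77, 0.7804, 1.69 and 0.824 CPM in the miR-21 swimming libraries and 3.27 to 11.5 CPM (median 5.78) in the empty-vector swimming group. Without swimming, Cdk1 had 1.23 to 2.204 CPM (median 1.38) in the miR-21 controls and 1.57 to 4.24 CPM (median 2.47) in the empty-vector controls. Its swimming and control libraries overlapped under the empty vector, and miR-21 swimming replicate 2 lay within the empty-vector swimming range. The log2 fold change of Cdk1 with swimming was 1.38 ± 0.44 (SE, edgeR adjusted p = 0.0553), which did not pass. It passed without miR-21 swimming replicate 2 (1.38, adjusted p = 0.00284) and with the title series term (3.48, adjusted p = 0.00954). The value for miR-21 in swimming hearts was -1.39 ± 0.46 (SE, edgeR adjusted p = 0.0881), or -2.42 (adjusted p = 0.000189) without replicate 2. Ccnb1, the cyclin B that activates Cdk1, had 1.501, 3.82, 0, 1.18 and 0.165 CPM in the miR-21 swimming libraries and 1.63 to 7.89 CPM (median 3.77) in the empty-vector swimming group. Without swimming, Ccnb1 had 0.284 to 1.14 CPM (median 0.571) in the miR-21 controls and 0.819 to 2.96 CPM (median 1.57) in the empty-vector controls. It overlapped in both comparisons, at 1.305 ± 0.56 (SE, edgeR adjusted p = 0.162) for swimming and -1.599 ± 0.61 (SE, edgeR adjusted p = 0.136) for miR-21 in swimming hearts. Without replicate 2 the miR-21 value of Ccnb1 was -2.505 (adjusted p = 0.00707) and with the title series term -3.16 (adjusted p = 0.0108). Its swimming value did not pass without replicate 2 (1.31, adjusted p = 0.0609) and did with the title series term (3.83, adjusted p = 0.0409).

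Pbk, a mitotic kinase, had 0.6004, 1.35, 0.07804, 0.736 and 0.0824 CPM in the miR-21 swimming libraries and 2.08 to 4.39 CPM (median 3.02) in the empty-vector swimming group. Without swimming, Pbk had 0 to 0.356 CPM (median 0.116) in the miR-21 controls and 0.4497 to 1.805 CPM (median 0.662) in the empty-vector controls. All 6 empty-vector swimming libraries lay above every library of the other 3 groups, and all 6 miR-21 controls lay below all 6 empty-vector controls. Its log2 fold change was 1.898 ± 0.48 (SE, edgeR adjusted p = 0.0197) with swimming, -2.41 ± 0.54 (SE, edgeR adjusted p = 0.0124) with miR-21 in swimming hearts and -2.55 ± 0.64 (SE, edgeR adjusted p = 0.04398) with miR-21 without swimming. Ccna2, cyclin A2, rose by 1.71 ± 0.44 (SE, edgeR adjusted p = 0.02195) with swimming, higher in 6 of 6 libraries, and fell by 1.85 ± 0.47 (adjusted p = 0.0285) with miR-21 in swimming hearts. Melk, a kinase abundant in dividing cells, rose by 2.13 and Plk1, a kinase of centrosome maturation and mitotic entry, by 1.22 (adjusted p = 0.0473), a call lost under 17 of 30 alternatives. Ccnb2, the second B-type cyclin, did not pass in either comparison, at 1.39 with swimming and -1.58 with miR-21 in swimming hearts.

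Of the 8 kinetochore and checkpoint genes, 7 were called higher with swimming under the empty vector. The exception was Ndc80, which was positive but did not pass, at 1.38 ± 0.47 (SE, edgeR adjusted p = 0.0746). Ttk, the kinase that starts the spindle checkpoint, had 0.375, 1.0001, 0, 0.221 and 0.247 CPM in the miR-21 swimming libraries and 1.04 to 3.07 CPM (median 1.698) in the empty-vector swimming group. Without swimming, Ttk had 0.169 to 0.427 CPM (median 0.263) in the miR-21 controls and 0.0744 to 0.869 CPM (median 0.325) in the empty-vector controls. The empty-vector swimming libraries lay above all those of the other 3 groups. Ttk showed the largest rise of the 42, 2.28 ± 0.49 (SE, edgeR adjusted p = 0.00707), and fell by 2.29 ± 0.53 (adjusted p = 0.0153) with miR-21 in swimming hearts. Nuf2, which forms the microtubule-binding complex with Ndc80, had 0.826, 2.59, 0.156, 0.589 and 0.165 CPM in the miR-21 swimming libraries and 2.02 to 7.71 CPM (median 3.59) in the empty-vector swimming group. Without swimming, Nuf2 had 0.153 to 1.08 CPM (median 0.817) in the miR-21 controls and 0.357 to 1.35 CPM (median 1.198) in the empty-vector controls. Under the empty vector its swimming libraries cleared the controls, with a rise of 1.999 ± 0.50 (SE, edgeR adjusted p = 0.0179), and with miR-21 in swimming hearts it fell, at -2.24 ± 0.54 (SE, edgeR adjusted p = 0.0196). The checkpoint kinases Bub1 and Bub1b rose by 1.69 and 1.21 with swimming and fell by 2.38 and 1.51 with miR-21 in swimming hearts. Their swimming calls were next to the threshold, at an adjusted p of 0.0475 for Bub1 and 0.0484 for Bub1b, and were lost under 20 and 21 of 30 alternatives. The miR-21 calls were lost under 5 and 7 of 31. Casc5, the Knl1 scaffold to which they bind, and Cenpe, a kinesin of the kinetochore, rose by 2.01 and 1.72 with swimming, and neither passed for miR-21 in swimming hearts, at -1.51 and -1.46.

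Cenpf, a large protein of the nuclear matrix and kinetochore, was distributed differently from the other 41 genes. It had 19.5, 7.35, 20.8, 6.698 and 23.97 CPM in the miR-21 swimming libraries and 17.96 to 38.8 CPM (median 25.3) in the empty-vector swimming group. Without swimming, Cenpf had 15.1 to 17.3 CPM (median 16.02) in the miR-21 controls and 4.38 to 17.05 CPM (median 10.9) in the empty-vector controls. The 6 empty-vector swimming libraries lay above all 6 empty-vector controls, at 1.32 ± 0.30 (SE, edgeR adjusted p = 0.0106). In replicate 2 of the miR-21 swimming group, where 39 of the 42 genes were highest, Cenpf was lower than in replicates 1, 3 and 5. It was the only one of the 42 with a positive log2 fold change for miR-21 without swimming, 0.57 ± 0.30 (SE, edgeR adjusted p = 0.205), and had the value nearest 0 for miR-21 in swimming hearts, -0.79 ± 0.31 (SE, edgeR adjusted p = 0.151). With the title series term the swimming value of Cenpf was 0.95 (adjusted p = 0.486), and its call was lost.

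The chromosomal passenger complex corrects wrong attachments and later moves to the midzone, and 0 of its 3 genes passed edgeR's test for swimming under the empty vector, although 3 of 3 had an unadjusted p under 0.05. Aurkb, its kinase, had 0.826, 4.12, 0.468, 0.515 and 0.165 CPM in the miR-21 swimming libraries and 2.36 to 5.79 CPM (median 3.13) in the empty-vector swimming group. Without swimming, Aurkb had 0.0767 to 0.852 CPM (median 0.488) in the miR-21 controls and 0.643 to 3.07 CPM (median 1.03) in the empty-vector controls. The 2 empty-vector groups overlapped, since the controls reached 3.07 CPM, and the log2 fold change with swimming was 1.42 ± 0.55 (SE, edgeR adjusted p = 0.116). Aurkb passed without miR-21 swimming replicate 2 (1.43, adjusted p = 0.0167) and with the title series term (4.09, adjusted p = 0.0191). With miR-21 in swimming hearts Aurkb was at -1.56 ± 0.58 (SE, edgeR adjusted p = 0.1304), or -2.88 (adjusted p = 0.000828) without replicate 2. Birc5, survivin, was at 1.33 ± 0.44 (SE, edgeR adjusted p = 0.0628) with swimming, although all 6 swimming libraries lay above the controls, and passed under 7 of 30 alternatives. Cdca8, borealin, was at 1.099 ± 0.41 (SE, edgeR adjusted p = 0.108) with swimming, and fell by 1.64 ± 0.45 (adjusted p = 0.0385) with miR-21 in swimming hearts, a call lost under 9 of 31 alternatives. Without miR-21 swimming replicate 2 all 3 genes of the complex passed for swimming, in a fit that called 1922 of all 13530 genes.

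In the spindle group 8 of 10 genes were called higher with swimming under the empty vector. With miR-21 in swimming hearts 7 of 10 were called lower. Kif4, a motor that acts on chromosome arms and the midzone, had 1.58, 2.65, 0.624, 1.25 and 0.906 CPM in the miR-21 swimming libraries and 2.895 to 7.08 CPM (median 4.28) in the empty-vector swimming group. Without swimming, Kif4 had 0.921 to 1.705 CPM (median 1.11) in the miR-21 controls and 1.34 to 2.64 CPM (median 1.74) in the empty-vector controls. Its empty-vector swimming libraries lay above those of all other groups. Kif4 rose by 1.400 ± 0.28 (SE, edgeR adjusted p = 0.00446) with swimming and fell by 1.73 ± 0.31 (adjusted p = 0.00256) with miR-21 in swimming hearts. Troap, a protein of the spindle, had 0.6004, 1.0001, 0.234, 0.442 and 0.247 CPM in the miR-21 swimming libraries and 1.04 to 4.18 CPM (median 2.496) in the empty-vector swimming group. Without swimming, Troap had 0.2302 to 0.63996 CPM (median 0.566) in the miR-21 controls and 0.214 to 1.07 CPM (median 0.626) in the empty-vector controls. All 5 miR-21 swimming libraries were below the empty-vector swimming range. It rose by 1.98 ± 0.40 (SE, edgeR adjusted p = 0.00428) with swimming and fell by 2.30 ± 0.44 (adjusted p = 0.00395) with miR-21 in swimming hearts. Aspm, a spindle pole protein whose human counterpart is mutated in primary microcephaly, had 0.751, 2.65, 0.234, 0.8097 and 0.3295 CPM in the miR-21 swimming libraries and 3.19 to 7.89 CPM (median 4.97) in the empty-vector swimming group. Without swimming, Aspm had 0.221 to 1.35 CPM (median 0.704) in the miR-21 controls and 0.899 to 2.196 CPM (median 1.71) in the empty-vector controls. Here, too, the empty-vector swimming libraries lay above every other library, at 1.63 ± 0.39 (SE, edgeR adjusted p = 0.0148) with swimming and -2.37 ± 0.44 (SE, edgeR adjusted p = 0.00361) for miR-21 in swimming hearts.

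Ckap2l, a spindle protein of dividing cells, had the smallest adjusted p of the 42 for miR-21 in swimming hearts, -2.44 ± 0.43 (SE, edgeR adjusted p = 0.00246). It stood at 1.35, 2.18, 0.312, 0.589 and 0.577 CPM in the miR-21 swimming libraries and 2.97 to 9.56 CPM (median 4.77) in the empty-vector swimming group. Without swimming, Ckap2l had 0.498 to 2.01 CPM (median 1.12) in the miR-21 controls and 1.14 to 3.64 CPM (median 1.97) in the empty-vector controls. The 5 miR-21 swimming libraries were all below the empty-vector swimming range, while the 2 empty-vector groups overlapped, at 1.41 ± 0.38 (SE, edgeR adjusted p = 0.0257). Kif18b, a motor that acts on microtubule ends, rose by 2.17 ± 0.51 with swimming and fell by 2.11 ± 0.54 with miR-21 in swimming hearts. Nusap1 rose by 1.72 ± 0.40 (adjusted p = 0.0106) without passing for miR-21, at -1.38. The kinase Aurka and its activator Tpx2 rose by 1.12 and 1.57 with swimming and fell by 1.45 and 1.90 with miR-21 in swimming hearts. The swimming call of Tpx2 (adjusted p = 0.04801) was lost under 20 of 30 alternatives and its miR-21 call under 10 of 31, against 7 of 30 and 6 of 31 for Aurka. Kif11, the motor that pushes the spindle poles apart, and Hmmr did not pass in either, at 1.19 and 1.09 with swimming and -1.14 and -1.71 with miR-21.

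Among genes of chromosome structure, Mki67 encodes Ki-67, the coat protein of mitotic chromosomes widely used as a marker of dividing cells. It had 8.78, 35.6, 1.95, 4.86 and 2.64 CPM in the miR-21 swimming libraries and 15.2 to 54.2 CPM (median 25.8) in the empty-vector swimming group. Without swimming, Mki67 had 2.302 to 6.75 CPM (median 3.93) in the miR-21 controls and 5.47 to 14.04 CPM (median 8.298) in the empty-vector controls. All 6 swimming libraries with the empty vector lay above all 6 controls, and miR-21 swimming replicate 2 stood within their range while the other 4 stood below it. The log2 fold change was 1.68 ± 0.51 (SE, edgeR adjusted p = 0.0495) with swimming, a value next to the threshold that missed it under 22 of 30 alternatives (adjusted p up to 0.117). With miR-21 in swimming hearts it was -1.47 ± 0.54 (SE, edgeR adjusted p = 0.125), or -2.72 (adjusted p = 0.000463) without replicate 2. Top2a, the topoisomerase that untangles sister chromatids, had 3.53, 20.002, 1.33, 3.46 and 0.906 CPM in the miR-21 swimming libraries and 8.24 to 32.9 CPM (median 17.6) in the empty-vector swimming group. Without swimming, Top2a had 1.23 to 5.19 CPM (median 3.11) in the miR-21 controls and 3.79 to 8.597 CPM (median 5.61) in the empty-vector controls. It overlapped slightly between the empty-vector groups, rose by 1.76 ± 0.53 (SE, edgeR adjusted p = 0.0457) with swimming, and missed the threshold under 18 of 30 alternatives. With miR-21 in swimming hearts Top2a was at -1.75 ± 0.56 (SE, edgeR adjusted p = 0.0779), or -3.10 (adjusted p = 0.000218) without replicate 2.

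Esco2, the enzyme that acetylates cohesin so that sister chromatids stay together, had 0, 0.882, 0, 0.221 and 0 CPM in the miR-21 swimming libraries and 1.11 to 2.76 CPM (median 1.99) in the empty-vector swimming group. Without swimming, Esco2 had 0.0767 to 0.663 CPM (median 0.404) in the miR-21 controls and 0.223 to 1.07 CPM (median 0.6702) in the empty-vector controls. It gave no read in 3 of the 5 miR-21 swimming libraries, and all 5 lay below the empty-vector swimming libraries. It fell most of the 42 with miR-21 in swimming hearts, by 2.98 ± 0.66 (adjusted p = 0.0115). With swimming under the empty vector it was at 1.603 ± 0.55 (SE, edgeR adjusted p = 0.0754), although those groups did not overlap.

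**Figure D4:**
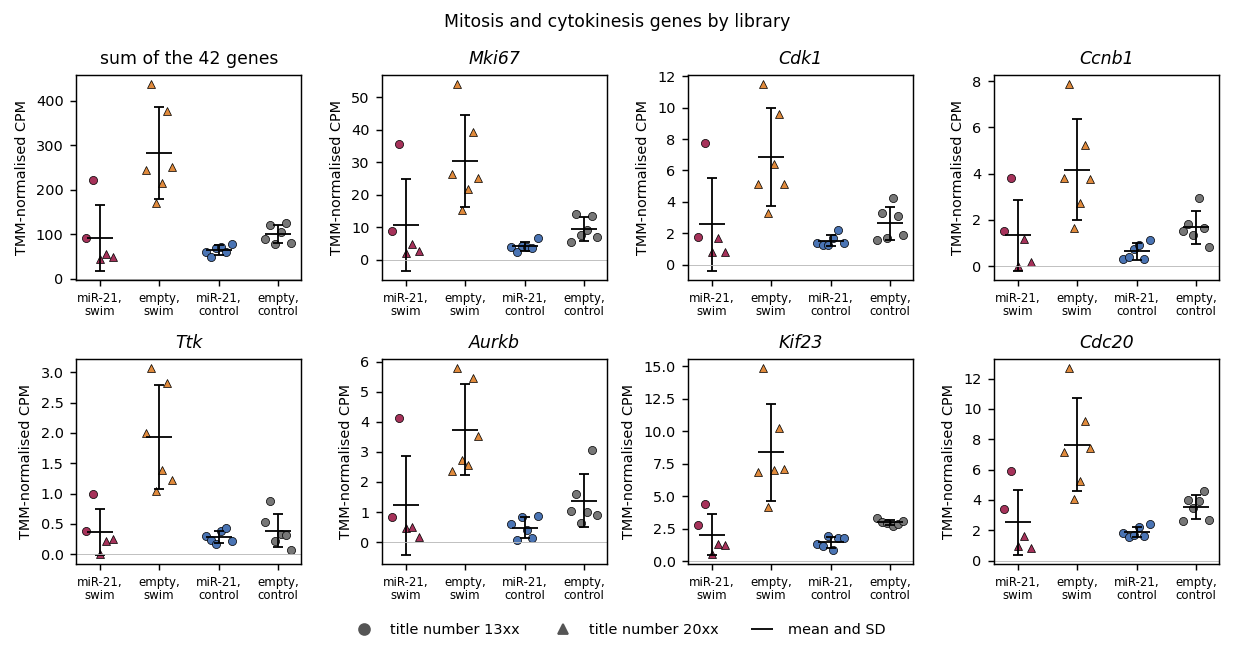
TMM-normalised CPM of the summed 42 genes and of 7 of them in each library, by group, with circles for title numbers 13xx, triangles for 20xx, and bars for the mean and SD. The empty-vector swimming libraries are the highest in the sum, from 169.9 to 437.9 CPM, and 1 library of the miR-21 swimming group, replicate 2 at 220.8 CPM, lies in their range.

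Among the 4 genes listed under mitotic exit, 1 was called higher with swimming under the empty vector, and all 4 log2 fold changes were positive. Fam64a, a mitotic regulator now named Pimreg, had 1.58, 1.41, 0, 0.442 and 0.0824 CPM in the miR-21 swimming libraries and 2.45 to 9.77 CPM (median 4.56) in the empty-vector swimming group. Without swimming, Fam64a had 0.2302 to 0.811 CPM (median 0.647) in the miR-21 controls and 0.6697 to 1.95 CPM (median 1.18) in the empty-vector controls. The empty-vector swimming libraries lay above those of every other group. Fam64a rose by 2.18 ± 0.50 (SE, edgeR adjusted p = 0.0106) with swimming and fell by 2.90 ± 0.56 (adjusted p = 0.00492) with miR-21 in swimming hearts. Cdc20, the activator of the anaphase-promoting complex, had 3.38, 5.88, 0.936, 1.62 and 0.824 CPM in the miR-21 swimming libraries and 4.08 to 12.7 CPM (median 7.29) in the empty-vector swimming group. Without swimming, Cdc20 had 1.53 to 2.42 CPM (median 1.76) in the miR-21 controls and 2.62 to 4.58 CPM (median 3.704) in the empty-vector controls. The 6 miR-21 controls lay below all 6 empty-vector controls, and the empty-vector swimming and control groups overlapped. Its value was 1.100 ± 0.35 (SE, edgeR adjusted p = 0.05303) with swimming, which did not pass, and -1.57 ± 0.38 (SE, edgeR adjusted p = 0.0187) for miR-21 in swimming hearts, which did. Ube2c, which loads ubiquitin for that complex, was at 0.95 with swimming and -1.25 with miR-21 in swimming hearts and passed in neither. Cdca3 had the largest p of the 42 for swimming, at 1.13 ± 0.56 (SE, edgeR adjusted p = 0.223).

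All 6 cytokinesis genes rose with swimming under the empty vector, and all 6 fell with miR-21 in swimming hearts. Ect2, the exchange factor that switches on RhoA at the cell equator, had 2.102, 2.06, 0.234, 0.515 and 0.3295 CPM in the miR-21 swimming libraries and 2.15 to 5.66 CPM (median 3.67) in the empty-vector swimming group. Without swimming, Ect2 had 0.442 to 0.995 CPM (median 0.629) in the miR-21 controls and 0.6697 to 1.38 CPM (median 0.806) in the empty-vector controls. Every empty-vector swimming library lay above all those of the other 3 groups. Ect2 had the smallest adjusted p of the 42 for swimming, 2.12 ± 0.40 (SE, edgeR adjusted p = 0.00282), and fell by 1.90 ± 0.42 (adjusted p = 0.0124) with miR-21 in swimming hearts. Kif23, the motor of the centralspindlin complex, had 2.78, 4.41, 0.546, 1.32 and 1.24 CPM in the miR-21 swimming libraries and 4.16 to 14.9 CPM (median 7.07) in the empty-vector swimming group. Without swimming, Kif23 had 0.852 to 1.94 CPM (median 1.55) in the miR-21 controls and 2.69 to 3.298 CPM (median 2.97) in the empty-vector controls. The empty-vector controls were tightly grouped, with all 6 swimming libraries above them and all 6 miR-21 controls below. Its log2 fold change was 1.49 ± 0.33 (SE, edgeR adjusted p = 0.00908) with swimming, -1.999 ± 0.37 (SE, edgeR adjusted p = 0.00327) for miR-21 in swimming hearts and -1.02 ± 0.36 (SE, edgeR adjusted p = 0.0897) for miR-21 without swimming, the last of which did not pass.

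Racgap1, the partner of Kif23 in centralspindlin, had 3.302, 8.295, 2.34, 2.797 and 1.32 CPM in the miR-21 swimming libraries and 5.72 to 18.99 CPM (median 9.58) in the empty-vector swimming group. Without swimming, Racgap1 had 1.69 to 3.13 CPM (median 2.87) in the miR-21 controls and 2.79 to 5.15 CPM (median 3.74) in the empty-vector controls. Its empty-vector swimming libraries lay above both groups without swimming, and miR-21 swimming replicate 2 reached into their range. It rose by 1.55 ± 0.33 (SE, edgeR adjusted p = 0.00611) with swimming and fell by 1.62 ± 0.35 (adjusted p = 0.0101) with miR-21 in swimming hearts. Prc1, which bundles the midzone microtubules, had 3.002, 6.001, 0.312, 1.47 and 0.494 CPM in the miR-21 swimming libraries and 5.79 to 20.1 CPM (median 11.4) in the empty-vector swimming group. Without swimming, Prc1 had 0.844 to 2.86 CPM (median 2.16) in the miR-21 controls and 2.31 to 5.696 CPM (median 4.16) in the empty-vector controls. Its empty-vector swimming libraries lay above both groups without swimming, and miR-21 swimming replicate 2 came just into their range. It rose by 1.703 ± 0.46 (SE, edgeR adjusted p = 0.0279) with swimming and fell by 2.48 ± 0.51 (adjusted p = 0.00785) with miR-21 in swimming hearts. Anln, the scaffold of the contractile ring, rose by 1.23 ± 0.30 with swimming and fell by 1.67 ± 0.32 with miR-21 in swimming hearts. Kif20a, a midzone motor, rose by 1.095 ± 0.32 with swimming and fell by 1.25 ± 0.34 with miR-21 in swimming hearts, calls lost under 12 of 30 and 11 of 31 alternatives.

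Mxd3, a transcription repressor of the Myc network that dividing cells express, had 0.225, 1.24, 0.156, 0.8097 and 0 CPM in the miR-21 swimming libraries and 1.34 to 5.17 CPM (median 2.12) in the empty-vector swimming group. Without swimming, Mxd3 had 0.0767 to 0.781 CPM (median 0.297) in the miR-21 controls and 0.1499 to 1.01 CPM (median 0.638) in the empty-vector controls. Its empty-vector swimming libraries lay above those of all other groups. It rose by 2.03 ± 0.55 (SE, edgeR adjusted p = 0.0281) with swimming and fell by 2.33 ± 0.61 (adjusted p = 0.0296) with miR-21 in swimming hearts.

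Between the vectors without swimming, 1 of the 42 genes, Pbk, was called lower with miR-21 and 0 higher, where 1.37% of all genes were called lower and 0.881% higher. The other values leaned the same way: 41 of 42 were negative, from -2.55 to 0.57, with a median of -0.87 against -0.0048 for all genes. At an unadjusted p under 0.05 there were 13 of 42, a share near the 28.4% of all genes. In 5 of the 42, namely Pbk, Cdca8, Cdc20, Cdca3 and Kif23, the 6 miR-21 controls lay below all 6 empty-vector controls, against 2.41% of all genes, and 0 of 42 lay above, against 3.03%. This comparison shares the empty-vector controls with that of swimming under the empty vector. The Pbk call was lost under 16 of 30 alternatives (adjusted p up to 0.108). The count was 12 without miR-21 swimming replicate 2, which is in neither group and enters through the shared spread. In that fit 2885 of all 13530 genes tested were called in either direction, so the 12 do not set the 42 genes apart. In this comparison the authors' deposited table gave 8 genes lower and 1 higher, Cenpf at a log2 value of 0.58 (q = 0.0470), at its q under 0.05, where 6.30% of genes passed in that table.

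Swimming was also compared with no swimming under the miR-21 vector, and 0 of the 42 genes were called by edgeR or by DESeq2. Of all genes, edgeR called 0.0518% higher and 0.119% lower, and DESeq2 called 378 of 13501 in either direction. At an unadjusted p under 0.05 there were 7 of 42 genes, a share near the 18.8% of all genes. For 0 of 42 did the groups separate, against 0.948% of all genes higher and 1.81% lower. The log2 fold changes were positive for 39 of 42 with a median of 0.59, against 0.029 for all genes. The sign rested on replicate 2: without it 12 of 42 were positive and the median was -0.14, and the mean summed level of the miR-21 swimming group was 60.1 CPM, against 92.2 ± 74.2 CPM (SD, n = 5) with it and 64.5 ± 10.2 CPM (SD, n = 6) in the miR-21 controls. Within the 13xx series, miR-21 swimming replicates 1 and 2 against the 6 miR-21 controls gave 0 calls and a median of 1.36. With the title series term 19 of the 42 were called higher, at a median of 1.36, and 35 had an unadjusted p under 0.05. That fit called 1076 of all 13501 genes in either direction. How many of all genes had an unadjusted p under 0.05 in that fit was not counted. With the term, the difference rests on miR-21 swimming replicates 1 and 2, as in the 13xx fit, and replicate 2 is the library that stood apart. Mki67 was at 1.398 ± 0.57 (SE, edgeR adjusted p = 0.202) in this comparison, or 0.15 (adjusted p = 0.936) without replicate 2 and 2.42 (adjusted p = 0.0218) with the title series term. Pbk passed with that term as well, at 2.77 (adjusted p = 0.0343), and was at 1.42 (adjusted p = 0.419) without replicate 2.

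The effect of swimming under the miR-21 vector minus that under the empty vector, the interaction, was called for 0 of the 42 genes by edgeR. Of all genes, edgeR called 0.326% higher and 0.215% lower. DESeq2 called 1 of the 42, where it called 719 of all 13501 genes in either direction. The values were negative for 41 of 42, with a median of -0.89 against 0.0079 for all genes, and 11 of 42 had an unadjusted p under 0.05, against 21.5% of all genes. The smallest adjusted p were those of Cenpf, -1.37 ± 0.43 (SE, edgeR adjusted p = 0.0984), and Troap, -1.902 ± 0.62 (SE, edgeR adjusted p = 0.103). Without replicate 2 of the miR-21 swimming group the median was -1.66, 38 of 42 had an unadjusted p under 0.05 and 1 was called. In that fit 32 of all 13530 genes were called in either direction. How many of all genes had an unadjusted p under 0.05 in it was not counted.

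The authors' deposited tables hold their own log2 values and q-values for 4 of these comparisons. At q under 0.05 they list 34 of the 42 genes higher with swimming under the empty vector (4.03% of all genes with a q passed in either direction), 13 lower with miR-21 in swimming hearts (0.837%) and 0 for swimming under the miR-21 vector (0.127%). In the authors' deposited tables the median log2 value of the 42 genes was 1.52 for swimming under the empty vector, -1.68 for miR-21 in swimming hearts and 0.54 for swimming under the miR-21 vector.

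Other genes of cell division, in 6 lists of 187 genes that share no member with the 42, were read in the same comparisons, and the genes named are among those with the smallest p of their list, not the largest fold change. The counts stand against 4.18% of all genes called higher with swimming and 2.71% called lower with miR-21 in swimming hearts. With swimming under the empty vector 12 of 30 other spindle and centrosome genes tested were called higher and 0 lower, with a median log2 fold change of 1.25. Among those called were Sapcd2 (2.07), Stil (1.91) and Spag5 (1.46), all of spindle or centriole assembly. Plk4 (0.76), the kinase that starts centriole duplication, was called as well. Other kinetochore and checkpoint genes numbered 4 of 34 higher and 0 lower (median 0.34), among them Ska3 (1.82), Cenpn (1.07) and the checkpoint protein gene Mad2l1 (0.63). Condensin and cohesin genes numbered 5 of 19 higher (median 0.22), with the condensin genes Ncaph (1.18) and Smc2 (0.87) and the cohesin genes Pds5b (0.24) and Rad21 (0.24). In the list of other entry, exit and cytokinesis genes 5 of 29 were called higher (median 0.16). Among them were Iqgap3 (1.44), Mastl (1.29), Fbxo5 (1.13) and Wee1, the kinase that inhibits Cdk1, at 0.94 ± 0.13 (edgeR adjusted p = 0.00012). DNA replication and S phase genes numbered 9 of 44 higher (median 0.37), among them Pole (0.89), Pola2 (0.38), Mcm4 (0.60) and Uhrf1 (1.36).

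With miR-21 in swimming hearts the same lists gave 10 of 30 lower for other spindle and centrosome genes (median -1.40), 5 of 34 for other kinetochore genes (-0.36), 4 of 19 for condensin and cohesin (-0.087), 2 of 29 for other entry, exit and cytokinesis genes (-0.11) and 3 of 44 for DNA replication (-0.26), and 0 of these lists held a gene called higher. Among the genes called, Spag5 (-1.93), Sapcd2 (-2.22), Kif20b (-1.41), Stil (-2.13), Nsl1 (-1.63), Ska3 (-2.12), Cenpn (-1.26), Ncapg (-2.30), Ncaph (-1.22), Smc2 (-0.91), Iqgap3 (-2.26), Shcbp1 (-1.91), Pola2 (-0.35), Cdc45 (-0.60) and Uhrf1 (-1.14) fell. Without swimming, Wee1 rose by 0.66 ± 0.13 (adjusted p = 0.0164) with the miR-21 vector and Gmnn, the inhibitor of replication licensing, by 0.51, while Sept9 (-0.33) and Orc6 (-0.55) fell. In the interaction Wee1 was called, at -0.86 ± 0.18 (adjusted p = 0.0291).

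Of 25 genes that control cell cycle transcription, 1 was called higher and 1 lower with swimming under the empty vector, shares near the 4.18% and 3.28% of all genes. Foxm1, the factor that activates late cell cycle genes, had 0.741 to 5.94 CPM (median 1.65) in the miR-21 swimming group, 4.68 to 13.5 CPM (median 6.04) in the empty-vector swimming group, 0.998 to 2.13 CPM (median 1.59) in the miR-21 controls and 1.86 to 3.58 CPM (median 2.75) in the empty-vector controls. It rose by 1.44 ± 0.36 (SE, edgeR adjusted p = 0.0189) with swimming and fell by 1.73 ± 0.39 (adjusted p = 0.0142) with miR-21 in swimming hearts, where the repressor E2f7 also fell (-1.09). Cdkn1a, the p21 inhibitor of cyclin-dependent kinases, had 23.2 to 60.6 CPM (median 36.8) in the miR-21 swimming group and 27.6 to 60.8 CPM (median 45.8) in the empty-vector swimming group. Without swimming, Cdkn1a had 36.5 to 75.2 CPM (median 57.3) in the miR-21 controls and 91.3 to 160.5 CPM (median 117.4) in the empty-vector controls. It was highest in the empty-vector controls, which overlapped no other group, and fell by 1.36 ± 0.22 (adjusted p = 0.00133) with swimming and by 1.12 ± 0.22 (adjusted p = 0.0197) with miR-21 without swimming.

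**Figure D5:**
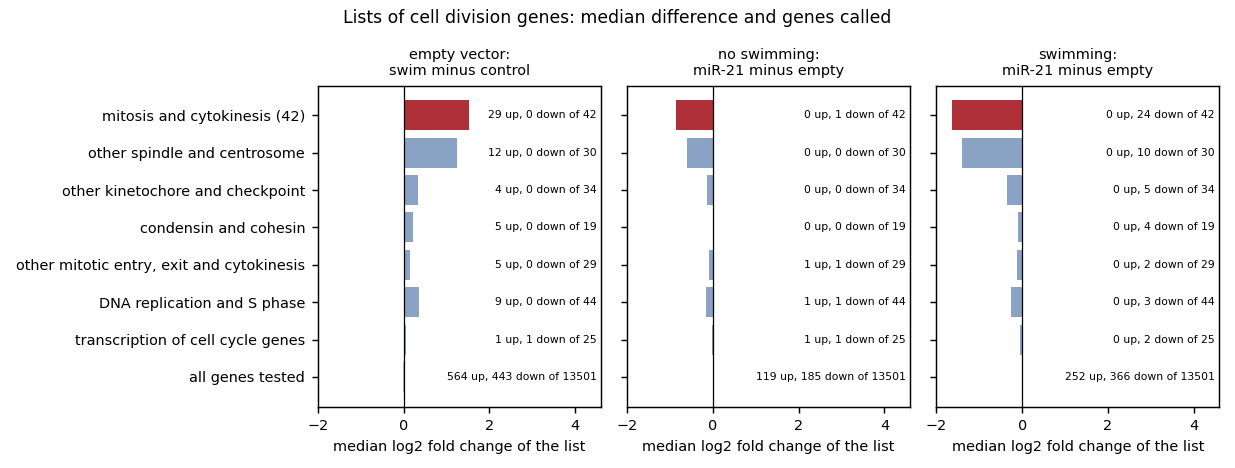
Median log2 fold change of the 42 genes, of 6 other lists of cell division genes and of all genes tested, in 3 comparisons, with the numbers of genes called higher and lower. The 42 genes (medians 1.52, -0.87 and -1.63) and the other spindle and centrosome genes (1.25, -0.60 and -1.40) have the medians farthest from 0.

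Markers of cell types moved in the same comparisons. With swimming under the empty vector 4 of 8 endothelial markers were called higher (Erg by 0.48, Cdh5 by 0.44, Pecam1 by 0.26 and Tek by 0.20). Of all genes 4.18% were called higher there. With miR-21 in swimming hearts 4 of the 8 endothelial markers were called lower (Cdh5 -0.46, Erg -0.43, Kdr -0.39 and Pecam1 -0.32). Of all genes 2.71% were called lower there. Summed endothelial markers were 1266 to 1491 CPM in the miR-21 swimming group, 1491 to 1849 in the empty-vector swimming group, 1342.2 to 1477.3 in the miR-21 controls and 1289 to 1548 in the empty-vector controls. Of 8 mural markers, 3 were called higher with swimming, against 4.18% of all genes (Rgs5 by 0.56, Kcnj8 by 0.32 and Notch3 by 0.31), and 0 lower. Of their 8 log2 fold changes 4 were negative, down to -0.56, and the median was -0.0094. Summed mural markers were 1121 to 1447 CPM in the miR-21 swimming group, 1377 to 1634 in the empty-vector swimming group, 1079 to 1424 in the miR-21 controls and 1071.0 to 1348.8 in the empty-vector controls. Falls with swimming were called for 4 of 4 adipocyte markers tested, 2 of 7 of T and NK cells (Cd4 and Cd3e), 1 of 6 mesothelial markers (Upk3b) and 1 of 8 fibroblast markers (Dcn). Of all genes 3.28% were called lower. Summed adipocyte markers were 362 and 295 CPM in empty-vector control replicates 2 and 5 and 3.57 to 21.4 CPM in the other empty-vector controls. The T and NK cell sums were 41.5 and 16.8 CPM in those replicates and 4.29 to 10.2 CPM in the others. In the cardiomyocyte (8 tested), macrophage (10), neutrophil (5) and B cell (6) lists 0 genes were called in that comparison by edgeR, and at an unadjusted p under 0.05 there were 2, 2, 0 and 1. Of the thymocyte and erythroid lists just 1 of 7 and 4 of 7 genes could be tested. Of the 7 thymocyte genes, Rag1, Rag2, Dntt and Ptcra had no read in 17, 21, 16 and 19 of the 23 libraries and Themis in 2, while Cd8b1 and Cd1d1 had reads in all 23. A single library held 35 of the 54 reads of Rag1. Cd1d1 had 1159 reads over all libraries and Cd8b1, the next highest, 125, so sums of this list are mostly Cd1d1. The thymocyte genes summed to 3.45 to 9.88 CPM in the miR-21 swimming group, 2.62 to 5.65 in the empty-vector swimming group, 2.35 to 10.3 in the miR-21 controls and 2.501 to 11.7 in the empty-vector controls. Of the mesothelial markers, 4 of 6 were called higher with miR-21 in swimming hearts (1.87% of all genes were). Their sums were 188.0 CPM in replicate 2 and 5.19 to 13.2 CPM in the other 4 libraries of the miR-21 swimming group (median of all 5 6.76). They were 7.88 to 13.8 CPM (median 10.6) in the empty-vector swimming group. Replicate 2 was thus the only library of the miR-21 swimming group above the empty-vector swimming range. With miR-21 without swimming 0 of 8 fibroblast markers were called. All 8 were negative at an unadjusted p under 0.05 (median -1.31), against 28.4% of all genes in either direction. Summed fibroblast markers were 1311 to 2156 CPM in the miR-21 controls and 1992 to 8292 CPM in the empty-vector controls. They were 1732 to 3596 CPM in the empty-vector swimming group. In the miR-21 swimming group they were 5524 CPM in replicate 2 and 1236 to 2255 CPM in the others. The part of these cell types in the differences of the mitotic genes was not tested.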

How the data were processed

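RNA was measured in 23 mouse heart libraries of 4 groups, taken from the labels. Per the labels' protocols, TRIzol was used for extraction and a stranded mRNA kit for the libraries. The build was GRCm39, per the submitters' processing notes, and the aligner is not given in the sources used here. The authors deposited raw counts per gene and library, and FPKM values of the same libraries (fragments scaled to gene length and library size), used here only to set levels of different genes side by side. The 4 comparison tables the authors deposited hold log2 values and their own p-value and q-value columns, from a tool the tables do not name. In those tables, 46 per-sample columns were not used. The sixth library with miR-21 and swimming was not analysed here.

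Counts were filtered with filterByExpr and scaled by TMM factors (trimmed mean of M-values), and CPM here are TMM-normalised. A single edgeR quasi-likelihood model, robust, was fitted to all 23 libraries. P-values were adjusted by Benjamini-Hochberg over all 13501 genes tested, and genes under 0.05 were called. Standard errors are the absolute log2 fold change divided by the square root of the F statistic. The pipeline was tested on simulated counts. Tests ran in R 4.3.3 with edgeR 4.0.16, DESeq2 1.42.0 and limma 3.58.1. Figures and motif searches ran in Python 3.11.15 with matplotlib 3.10.9, pandas 2.3.3 and numpy 2.4.6.

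The members, the 6 lists of other cell division genes and the 12 lists of cell markers were chosen with earlier results of these data known. Named are Mki67, Top2a, Cdk1, Ccnb1 and Aurkb, the 3 genes of each role with the smallest p for swimming under the empty vector, every gene called in another test, the gene with the largest p, and up to 4 genes of each other list. A gene that falls under this rule is not reported here. The remaining genes are covered by counts, ranges and single values. Alternatives were RLE scaling, no filter or a mean of at least 1 CPM, DESeq2, a fit of just the compared groups, the title number series as a term, fits within a series, leaving out the 3 libraries highest in adipocyte markers, and leaving out each library.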

Additional observations from a re-analysis of the deposited data

Results flagged for a closer look

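Replicate 2 of the miR-21 swimming group lay farther above the other libraries of its group than Dixon's 95% limit for 5 samples (a gap over range of 0.71) in the summed level of the 42 genes, at 220.8 CPM. The same held for 4 of the 5 genes always described: Mki67 at 35.6 CPM, Top2a at 20.002 CPM, Cdk1 at 7.77 CPM and Aurkb at 4.12 CPM. Over the 42 genes in 4 groups, 22 of 168 tests passed the limit, and 20 of those 22 were this library on the high side. The others were 1 gene high in empty-vector control replicate 2 and 1 low in empty-vector control replicate 3. Chance passes about 1 in 20 groups, and the genes of 1 library are not independent of each other. The library also had the highest summed mesothelial markers (188.0 CPM) and neutrophil markers (963 CPM) of its group and the lowest cardiomyocyte markers (54471 CPM), and the part of these in its mitotic transcripts was not tested.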

How the results depend on the processing

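The number of the 42 genes called with swimming under the empty vector was 29. It ran from 24 to 39 over the alternatives that kept all replicates or left out the 3 libraries highest in adipocyte markers. All genes called, in either direction here and below, ran from 164 to 1555 over those alternatives. With 1 library left out, 14 to 41 of the 42 and 607 to 1922 of all genes were called. For miR-21 without swimming the 1 call became 0 with no filter, 4 with DESeq2, 13 with only the 2 groups and 5 with the title series term. It became 0 within the 13xx series, 2 without the adipocyte-high libraries, and 0 to 12 with 1 library left out. All genes called numbered 1235 of 13501 with DESeq2, 1622 of 12991 with only the 2 groups and 911 of 13501 with the title series term. They numbered 771 of 13389 without the adipocyte-high libraries, and 17 to 2885 with 1 library left out. With only the 2 groups not all members were tested, and 1 was positive and 29 negative. For miR-21 in swimming hearts the 24 became 4 with only the 2 groups, 41 with the title series term and 41 within the 20xx series. It became 41 without the adipocyte-high libraries, and 14 to 41 with 1 library left out. All genes called there numbered 165 of 13067 with only the 2 groups and 707 of 13501 with the title series term. They numbered 2318 of 13389 without the adipocyte-high libraries, and 330 to 1871 with 1 library left out, against 618 of 13501 in the main fit. For swimming under the miR-21 vector the 0 became 19 with the title series term, where 1076 of all 13501 genes were called. It stayed 0 in all 23 fits that left out 1 library, where 0 to 86 of all genes were called. For the interaction the 0 became 1 with DESeq2, 4 with the title series term, 3 without the adipocyte-high libraries, and 0 to 1 with 1 library left out. All genes called there numbered 719 of 13501 with DESeq2 and 25 of 13501 with the title series term. They numbered 53 of 13389 without the adipocyte-high libraries, and 18 to 358 with 1 library left out. The cause was not tested. Medians of the 42 log2 fold changes over the fits that left out 1 library ran from 1.34 to 1.66, -0.96 to -0.73, -2.68 to -1.46, -0.14 to 0.85 and -1.66 to -0.70 in the order above. For the genes followed singly, 2764 of the values under an alternative stayed on the same side of the threshold, 262 lost a call and 172 gained one. None of these changed sign, but not all genes were followed. For miR-21 without swimming they were those with an unadjusted p under 0.05, Cdk1 and Top2a. For swimming under the miR-21 vector and the interaction they were the 3 with the smallest p. Over all 42, swimming under the miR-21 vector gave 39 positive values, and 12 without miR-21 swimming replicate 2. No paired analysis was possible because the replicate numbers were given in accession order and do not pair samples across groups. At these depths a gene with 0 reads in a library could stand at up to 0.253 CPM.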
